A study of Homo sapiens with 20 samples.

Results

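The strong and steady RUNX1 sites were the peaks with a high level in both groups and nearly the same level with and without PU.1 knockdown. A peak belonged to them if its mean over the 6 control libraries and its mean over the 6 knockdown libraries were both at least 80 CPM (counts per 1000000 reads in peaks), and if the ratio of knockdown to control mean lay between 0.83 and 1.2. This rule took 1101 of 26642 peaks (4.13%). Both means reached 80 CPM at 1553 peaks, of which 199 had a ratio below the band and 253 a ratio above it. The level and the ratio thus chose these peaks, and every value of the knockdown against control contrast given for them below is a description.

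RUNX1 ChIP-seq was made in THP-1, an established human monocytic leukemia cell line, in which doxycycline switched on an shRNA directed at PU.1 (the knockdown group) or, in the control group, a scramble shRNA. All cells carried an inducible shRNA cassette and received doxycycline. Whether each line was 1 clone or a pool is not given in the sources used here. Control and knockdown were different lines, so a difference between the lines cannot be told apart from the knockdown, also in the ratio that chose the peaks. Among autosomes, the median ratio of all peaks ran from 0.826 on chromosome 11 to 1.12 on chromosome 22, and the cause was not tested. The 12 RUNX1 libraries were made in 2 rounds, called batches in the labels, with 3 control and 2 knockdown libraries in batch 1 and 3 control and 4 knockdown libraries in batch 2, and 8 IgG samples were not analysed here. The assay does not measure the PU.1 transcript, so the knockdown was not checked in these libraries. Libraries held 630247 to 1719840 reads in peaks, and the replicates were separate immunoprecipitations and library preparations of the cell lines, so p-values measure the spread between these preparations.

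RUNX1 is a transcription factor of the Runt family that binds DNA together with CBFβ and is needed for the formation of blood stem cells and for myeloid and lymphoid development. It recognises a short motif, here searched as TGTGGT and as TGCGGT. PU.1 is an ETS factor needed for monocyte and macrophage development, while the study states that knockout mice still produce neutrophils. Both proteins occupy many enhancers and promoters of myeloid genes together. RUNX1 itself is transcribed from a distal and a proximal promoter.

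Promoter sequences were read at gene starts that lay inside these peaks. A window shows only part of its peak and can reach beyond it, as at RUNX1, whose peak ends at chr21:34888886. RefSeq (GRCh38.p14) gave at least 1 start site for 15843 of 20037 protein-coding genes. A start site lay inside 419 of the strong and steady peaks, in 673 promoter windows of 496 genes. The 250 bases before the start site are given for 8 genes, 5′ to 3′ along the strand of the gene, with the RUNX core on either strand in capitals. RUNX1 stands for the factor's own gene, BRD2 for the widest peak, NFKB2, HDAC4 and ASXL2 for the gene lists described below, SGO1 and FBXO4 for peaks with a ratio nearest 1, and SCD for a peak at the upper edge of the ratio band with 2 matches. The windows were chr21:34888700-34888949 (minus strand), chr6:32970680-32970929 (plus strand), chr10:102393860-102394109 (plus strand), chr2:239267515-239267764 (minus strand), chr2:25878488-25878737 (minus strand), chr3:20186207-20186456 (minus strand), chr5:41925031-41925280 (plus strand) and chr10:100346983-100347232 (plus strand).
RUNX1: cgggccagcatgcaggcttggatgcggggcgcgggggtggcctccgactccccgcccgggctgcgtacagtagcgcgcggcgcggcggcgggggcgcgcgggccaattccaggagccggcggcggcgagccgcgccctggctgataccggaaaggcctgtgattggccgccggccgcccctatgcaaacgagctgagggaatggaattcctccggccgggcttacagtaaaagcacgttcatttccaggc
BRD2: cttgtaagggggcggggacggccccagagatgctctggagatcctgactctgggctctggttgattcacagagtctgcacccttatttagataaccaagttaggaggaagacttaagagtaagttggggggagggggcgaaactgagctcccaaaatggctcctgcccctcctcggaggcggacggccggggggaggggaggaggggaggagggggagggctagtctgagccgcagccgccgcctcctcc
NFKB2: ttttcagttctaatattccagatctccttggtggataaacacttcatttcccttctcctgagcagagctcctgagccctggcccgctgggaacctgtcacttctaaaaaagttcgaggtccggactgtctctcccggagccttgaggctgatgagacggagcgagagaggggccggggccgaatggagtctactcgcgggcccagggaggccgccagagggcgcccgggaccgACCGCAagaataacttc
HDAC4: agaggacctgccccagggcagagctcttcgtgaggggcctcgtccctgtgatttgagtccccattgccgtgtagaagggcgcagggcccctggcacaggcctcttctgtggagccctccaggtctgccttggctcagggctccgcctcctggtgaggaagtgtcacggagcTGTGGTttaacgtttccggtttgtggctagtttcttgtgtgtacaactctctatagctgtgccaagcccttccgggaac
ASXL2: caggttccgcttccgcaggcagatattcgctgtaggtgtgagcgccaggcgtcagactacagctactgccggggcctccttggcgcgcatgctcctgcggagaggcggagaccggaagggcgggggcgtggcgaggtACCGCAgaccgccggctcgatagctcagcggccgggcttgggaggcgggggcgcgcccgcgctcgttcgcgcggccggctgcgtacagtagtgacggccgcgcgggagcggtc
SGO1: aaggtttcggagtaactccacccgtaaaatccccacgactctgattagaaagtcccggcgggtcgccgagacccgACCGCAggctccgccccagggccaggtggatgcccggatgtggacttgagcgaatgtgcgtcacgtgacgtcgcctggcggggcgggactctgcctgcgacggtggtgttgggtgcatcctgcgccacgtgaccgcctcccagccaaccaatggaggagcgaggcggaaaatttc
FBXO4: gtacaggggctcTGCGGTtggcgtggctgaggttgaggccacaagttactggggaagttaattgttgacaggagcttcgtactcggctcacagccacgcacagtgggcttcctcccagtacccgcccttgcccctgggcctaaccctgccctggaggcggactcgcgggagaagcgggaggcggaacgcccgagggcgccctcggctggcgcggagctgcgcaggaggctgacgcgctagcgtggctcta
SCD: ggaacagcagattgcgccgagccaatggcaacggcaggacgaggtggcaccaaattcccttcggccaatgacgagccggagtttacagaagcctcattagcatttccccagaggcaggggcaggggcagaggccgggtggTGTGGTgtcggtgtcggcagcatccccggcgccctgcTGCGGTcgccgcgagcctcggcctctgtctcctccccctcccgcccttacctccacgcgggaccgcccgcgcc

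The first base of the match lay at position -17 from the start site at NFKB2, -79 at HDAC4, -113 at ASXL2, -175 at SGO1 and -238 at FBXO4. SCD had matches at -110 and -73. The 8 were picked mostly for a match: over all 27 named peaks with a start site inside, 9 had one in these 250 bases, and FOS, ATF4, EP300, CCND3, BAK1, NBR1, ATG7, SQSTM1 and IFNGR1 had none. RUNX1 and BRD2 had none in the printed 250 bases, which says only that these letters are not in this window. Over the whole 300 base windows (250 before to 50 after the start, both strands), 245 of 673 windows (36.4%) at strong and steady peaks held a RUNX core, against 4213 of all 22199 promoter windows (19.0%) and 1636 of the 6506 windows in any peak (25.1%). The share was 33.2% of 214 windows at strong peaks below the ratio band and 42.9% of only 35 windows at strong peaks above it. The core TGCGGT accounted for most of the difference from all promoters, with 25% against 8.54%, while TGTGGT was in 15.3% against 11.3%. Of ETS type letters, CCGGAAGT was in 9.51% of the windows at strong and steady peaks, in 11.5% of those in any peak and in 5.34% of all promoters, and GAGGAAGT, the type preferred by PU.1, in 1.63%, 2.71% and 2.64%. Against windows in any peak, GGGCGG, which SP and KLF factors bind, was in 72.4% and 70.9%, and CCAAT, the letters of NFY, in 41.6% and 39.3%. TGACGTCA was in 2.67% and 3.61%, TGANTCA in 4.01% and 4.15%, CACGTG in 10.8% and 10.9% and AGATAA in 2.38% and 4.24%. TTGCGCAA or TTGCACAA was in 0.297% and 0.584%. These letters can overlap, windows of 1 gene can overlap each other, and a match is not a measured binding site. The median G+C content was 63.7%, against 64.3% in windows of any peak and 62.3% in all promoters. TGCGGT contains the dinucleotide CG, of which the windows held a median of 25, against 26 in any peak and 21 in all promoters, and its part in the shares was not tested.

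The 1101 peaks had a median level of 108 CPM (80.4 to 760 CPM), against 28.2 CPM for all peaks. The ratio of knockdown to control had a median of 0.985 with quartiles of 0.915 and 1.06. The coefficient of variation over 6 libraries had a median of 11.5% in control and 10.4% in knockdown, against 22.2% and 19.1% over all peaks. The strong peaks outside the band had 12.5% and 12.4% (ratio under 0.83) and 13.5% and 9.51% (over 1.2), so the low spread was shared by strong peaks. A median peak of the set held 66.0 to 188 reads per library, and the lowest value of any of them was 31 reads. Within batch 1 the ratio lay in the band at 86.8% of the peaks, within batch 2 at 89.4% and in both batches at 76.4%, values that share their libraries with the rule.

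**Figure D1:**
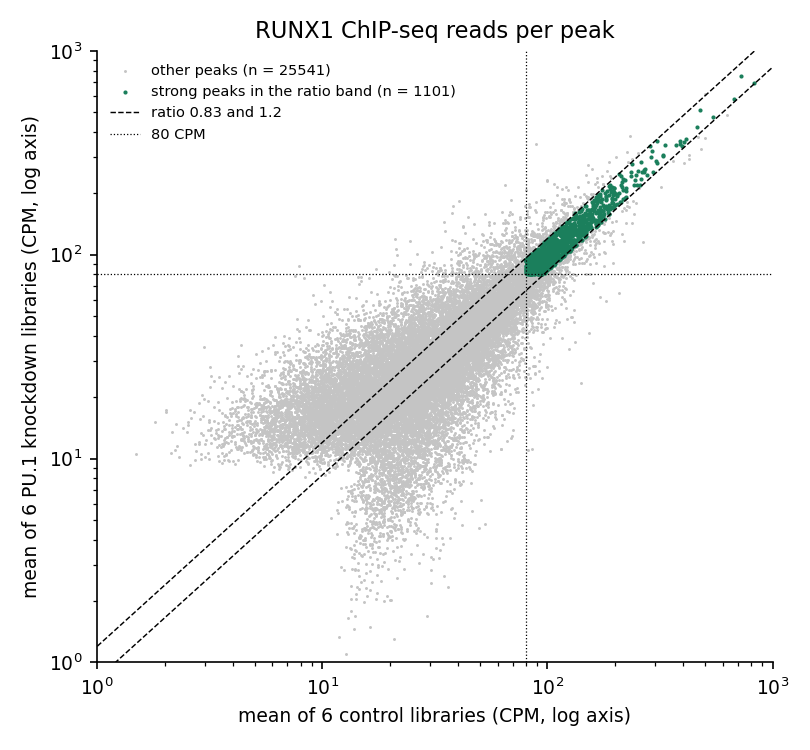
Mean RUNX1 ChIP-seq level of each of the 26642 peaks in 6 control libraries (x axis, CPM, log scale) and 6 knockdown libraries (y axis, CPM, log scale). Green points are the 1101 peaks with both means at least 80 CPM (dotted lines) and a ratio from 0.83 to 1.2 (dashed lines), which form a narrow wedge at the upper end of the cloud.

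At the lower edge of the ratio band, DUSP3 (ratio 0.8302) and WDR77 (0.8304) were just inside, and TBCB (0.8294) and a peak nearest to LOC124906010 (0.8296) just outside. At the upper edge, SCD (1.1975) and JMJD6 (1.1996) were inside the band. Just outside it were a peak 139 kb from SPACA1 (1.2018) and one 84.4 kb from ATG16L1 (1.2025), which overlapped INPP5D. At the edge of the level, the lower group mean was 80.01 CPM at APOOL, with GYPC closer still to the limit. Just outside were ZNF274 (79.97 CPM) and a peak 4.54 kb from CD300LF (79.99 CPM), which overlapped RAB37. Peaks on either side of an edge differed by far less than the spread between libraries. SGO1, which protects centromeric cohesion, had 88.4, 96.2 and 113 CPM as the lowest, median and highest control value and 89.5, 96.6 and 110 CPM in knockdown. MRTFA, an actin-regulated transcriptional coactivator, had 111, 125 and 134 CPM in control and 117, 123 and 133 CPM in knockdown. FBXO4, a substrate receptor of a ubiquitin ligase, had 76.7, 83.8 and 92.4 CPM in control and 64.5, 87.9 and 95.9 CPM in knockdown. In these 3 peaks, those with the ratio nearest 1, the values of both groups overlapped almost entirely.

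The 12 strongest peaks were unevenly placed: 8 of them lay on chromosome 1 between 39 and 41 Mb. The strongest, chr1:39950030-39956627, covered the start of MFSD2A, a lipid transporter, and was 6598 bp wide. It had 728, 780 and 977 CPM as the lowest, median and highest value in control and 654, 682 and 742 CPM in knockdown. The knockdown values were thus low against control, with only a small overlap, and the ratio was 0.939 in batch 1 and 0.765 in batch 2. A second peak, chr1:39933345-39935596, lay 19.5 kb outside MFSD2A and had 681, 718 and 793 CPM in control and 651, 732 and 885 CPM in knockdown. The groups overlapped there over most of their range, and its 328 CPM per kb of width was the highest value of any peak.

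Within the same stretch, CAP1, which encodes an actin regulator, had a peak inside the gene with 545 ± 57.7 CPM in control and 471 ± 52.8 CPM in knockdown (mean ± SD, n = 6). The start of ZFP69B, a zinc finger gene, had 461 ± 75.6 and 421 ± 75.9 CPM, and a peak 9.66 kb from BMP8B, which encodes a bone morphogenetic protein, had 411 ± 34.1 and 371 ± 29.3 CPM. The starts of EXO5, an exonuclease gene, and RLF, a zinc finger gene, had 403 ± 47.5 and 357 ± 21.4 CPM and 390 ± 35.8 and 361 ± 5.71 CPM. COL9A2, a collagen gene, had 394 ± 37.4 and 342 ± 24.6 CPM. In each of these the knockdown mean was lower, though the values of the groups overlapped. The peaks in CAP1 (adjusted p = 0.00251), near BMP8B (0.0449) and in COL9A2 (0.00875), like those at the start of MFSD2A (0.000470) and in ARHGAP39 (0.0274), were called lost by DESeq2, so 5 of the 12 strongest peaks were called although their ratio lay in the band. Of all peaks, 20.7% were called lost, and since the rule used this contrast nothing is read from the count. Elsewhere, peaks within ARHGAP39 and PLEC, the plectin gene, both on chromosome 8, had 677 ± 42.5 against 580 ± 104 CPM and 387 ± 25.1 against 349 ± 48.5 CPM. The median ratio of all peaks on chromosome 8 was below that over all chromosomes, and its part in these values was not tested. A peak 68.2 kb from LOC105375116 on chromosome 7 had 474 ± 79.9 and 515 ± 78.6 CPM. BRD2, which encodes a bromodomain protein that reads acetylated histones, carried the widest peak of the set, chr6:32966549-32973412, of 6864 bp, with 333, 358 and 443 CPM in control and 315, 348 and 360 CPM in knockdown.

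**Figure D2:**
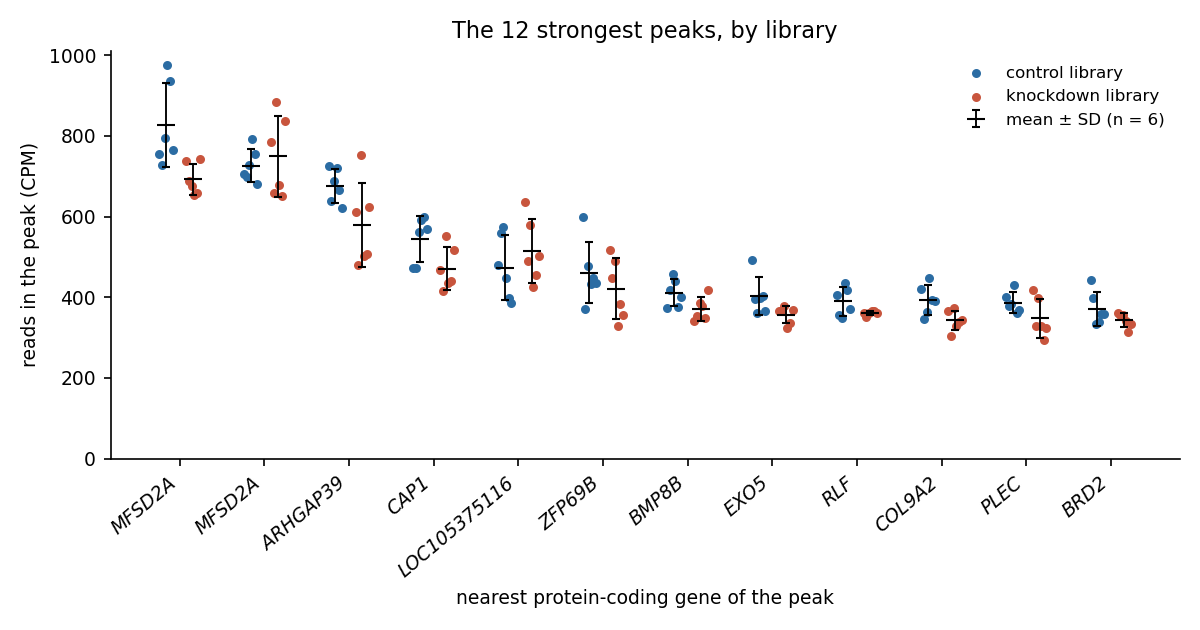
Level (CPM) of the 12 strongest peaks of the set in each control (blue) and knockdown (red) library, with mean ± SD over 6 libraries, named by the nearest protein-coding gene. The values ranged from 294 to 977 CPM, and knockdown and control points overlapped at each peak, including the 5 that DESeq2 called lost.

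The stretch of chromosome 1 from 39 to 41 Mb, chosen after its values were seen, held 95 peaks, of which 60 had a mean level of at least 80 CPM and 21 (22.1%) belonged to the strong and steady set. Of the 60, 28 had a ratio under the band and 11 a ratio over it, and the median ratio of the stretch was 0.884, so more of its strong peaks lay under the band than in it. Its peaks had a median of 86.8 CPM per kb, against 30.0 CPM per kb for all peaks, so the stretch as a whole stood high. These levels, and with them those of 8 of the 12 strongest peaks, were not set against IgG here. It took 1.38% to 1.44% of the in-peak reads in the 2 knockdown libraries of batch 1 and 1.47% to 1.58% in the 3 control libraries, and 1.33% to 1.53% and 1.61% to 1.90% in batch 2. The part of the stretch's level in the choice of its peaks was not tested beyond the values that follow. A second stretch of chromosome 1, from 120 to 150 Mb, held 42 strong and steady peaks of 225 peaks, with a median of 49.3 CPM per kb over all its peaks. It contains gene families with near-identical copies, such as PPIAL4F and PPIAL4H, each nearest to 3 of the strong and steady peaks, and reads shared between copies make these values uncertain. When each level was divided by the median level per kb of the other peaks within 1 Mb, the rule took 1044 peaks, of which 936 were among the 1101. Per kb, 1050 of 1087 strong and steady peaks with at least 5 such neighbours were above their own surroundings, against 12967 of 25994 peaks in all. The floor of the rule makes the first count high, and the comparison with a median largely sets the second. Nothing is therefore read from these counts. By chromosome, the share of peaks in the set was highest on chromosomes 19 (7.09% of 1466) and 1 (7.04% of 2967), and lowest on chromosome 11 (1.87% of 907). The median ratio of all peaks was 0.826 on chromosome 11. It was 1.02 on X (share 2.16%), 0.991 on chromosome 14 (2.17%) and 1.11 on chromosome 10 (4.23%). The part of these ratios in the shares was not tested.

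Strong and steady peaks were wide. Their median width was 1752 bp (quartiles 1339 and 2251 bp, range 588 to 6864 bp), against 889 bp for all peaks, and 391 of them (35.5%) were at least 2 kb wide, against 5.07% of all peaks. The rule counts the reads of a whole peak, so a wide peak reaches 80 CPM at a lower density. Strong peaks that changed were used for comparison, with a mean of both groups of at least 80 CPM and a ratio under 0.83 (353 peaks) or over 1.2 (475 peaks). Their median widths were 1876 bp and 1303 bp. At levels of 100 to 150 CPM, the medians were 1785 bp for 507 strong and steady peaks, 2004 bp for 135 peaks under the band and 1456 bp for 190 peaks over it. No test was made of these differences, since the ratio that separates the sets was itself measured. The widest peaks after BRD2 and MFSD2A lay at ends of MYC (5846 bp) and SLC1A5, a glutamine transporter gene (5823 bp, 169 ± 16.6 and 160 ± 20.1 CPM). The narrowest lay 31.9 kb from NID1 (588 bp) and inside USP48 (748 bp), 37.0 kb from NDUFB4 and 6.26 kb from PHF20L1 (both 779 bp), at 81.4 to 108 CPM.

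**Figure D3:**
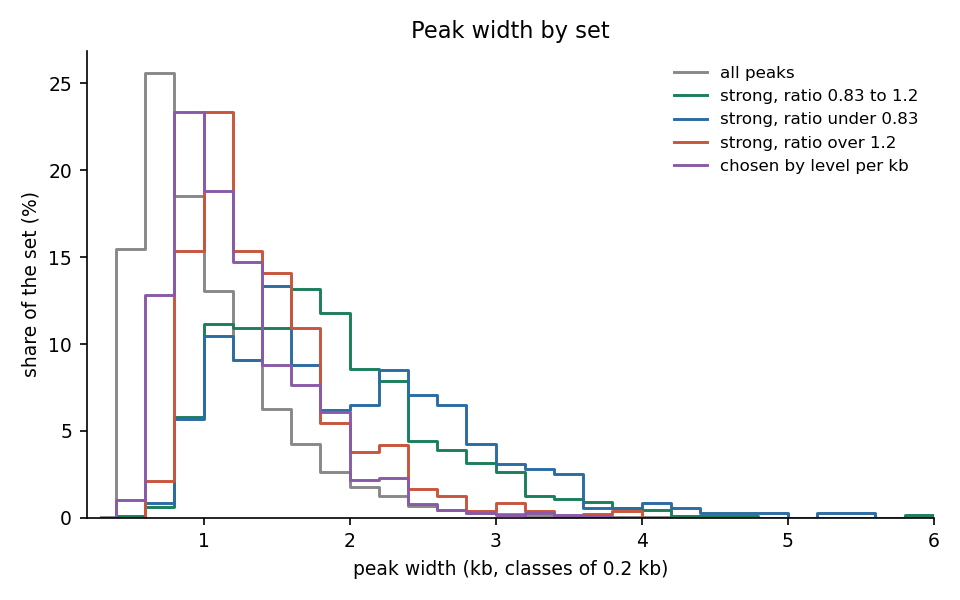
Share of peaks (y axis, %) in width classes of 0.2 kb (x axis, kb) for all peaks, the strong and steady peaks, both sets of strong peaks outside the ratio band, and 1101 peaks in the ratio band chosen by level per kb. The median was 1752 bp for the strong and steady peaks, 889 bp for all peaks and 1142 bp for the choice per kb.

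Gene ends were the most common place of these peaks. Of the 1101 peaks, 495 lay at most 1 kb from where a protein-coding gene begins or ends (45%, 95% Wilson interval 42.0 to 47.9, counting error only), against 24.4% of all peaks. A further 321 (29.2%) lay inside a gene farther from its ends and 285 (25.9%) outside genes. The share at gene ends was 47.0% for strong peaks below the ratio band and 11.6% for those above it. The strong and steady peaks were close to the weakened ones in position, though the difference was not tested. At levels from 80 to 100 CPM the shares were 47.4%, 48.3% and 12.8%, and from 150 CPM up 41.1%, 37.5% and 8.47%. Peaks of moderate level (both means at least 20 CPM) in the same ratio band had 37.9%. The pattern depended on how strength was measured: when the level was taken per kb of width and as many peaks were kept in the ratio band, 638 of the 1101 remained, the median width was 1142 bp and 24.5% lay at gene ends, as in all peaks. With start sites in place of gene ends, a start lay inside the peak at 419 of 1036 strong and steady peaks (40.4%) against 18.7% of all peaks, and starts of different genes on opposite strands lay inside 71 (6.85%) against 2.33%.

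Within the set, the 495 peaks at gene ends had a median width of 2013 bp, a median of 54.2 CPM per kb and a median ratio of 0.956. The 606 others had 1522 bp, 77.1 CPM per kb and a ratio of 1.02. Their median totals were 106 and 110 CPM. The rule set a floor on the total, so a lower density at the wider peaks follows from it, and over all peaks the density was 29.6 CPM per kb at gene ends and 30.1 CPM per kb elsewhere. The order of the ratios was the same over all peaks, with 0.887 at gene ends and 1.07 elsewhere.

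**Figure D4:**
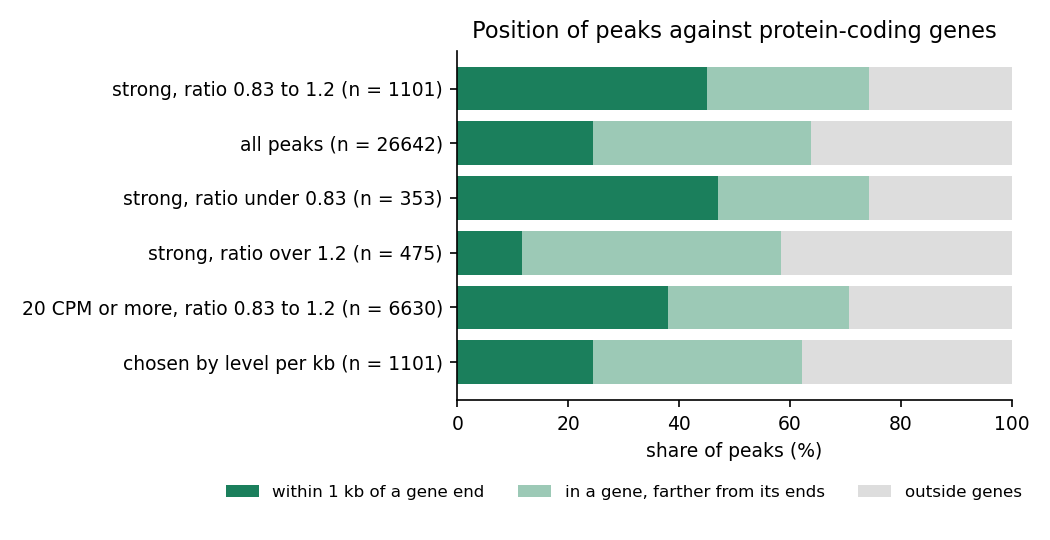
Share of peaks (x axis, %) at most 1 kb from a gene end, inside a gene farther from its ends and outside genes, for 6 sets of peaks. The strong and steady peaks (45% at gene ends) stood near the strong peaks under the ratio band (47.0%) and far from those over it (11.6%), and the choice by level per kb had 24.5%.

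The nearest protein-coding genes of the 1101 peaks were 1022 genes, 8.69% of the 11763 genes that were nearest to any peak, and 67 genes had at least 2 of these peaks. RUNX1 had the most, with 5 of its 17 peaks, and was looked at closely after this was seen. The peak at its upper gene end, chr21:35048707-35049881, where the distal promoter lies, had 125, 132 and 149 CPM in control and 122, 147 and 176 CPM in knockdown. The peak over the RefSeq start of the proximal promoter, chr21:34887683-34888886, had 86.2, 103 and 146 CPM in control and 101, 113 and 125 CPM in knockdown. The control values enclosed those of knockdown at the proximal peak, and the reverse held at the distal one.

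The other 3 lay inside the gene, centred at -22.4, -184 and -213 kb from its upper end (negative inside the gene). They had 115 ± 10.6, 147 ± 12.8 and 91 ± 13.4 CPM in control and 96.7 ± 5.70, 130 ± 5.42 and 80.5 ± 10.2 CPM in knockdown. Of these 5 peaks, the one at -22.4 kb was called lost (log2 fold change -0.25, DESeq2 adjusted p = 0.0473), a value of the contrast that the rule used. Of the 12 peaks of RUNX1 outside the set, 3 gained and 2 lost RUNX1 in knockdown (DESeq2, Benjamini-Hochberg adjusted p under 0.05, fold change over 1.1). Of all peaks, 21.3% gained and 20.7% lost, so calls were about as frequent here as elsewhere. The peak centred at -2.93 kb, next to the distal promoter, rose from 54.1 ± 6.78 to 92.6 ± 9.25 CPM (log2 fold change 0.78 ± 0.13 SE, adjusted p = 8.5e-08). A peak 53.7 kb outside the gene fell from 32.2 ± 9.20 to 10.5 ± 2.26 CPM (log2 fold change -1.62 ± 0.26 SE, adjusted p = 4.9e-09). Peaks inside and outside the band thus lay in 1 locus, which is not read as a trait of this locus.

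**Figure D5:**
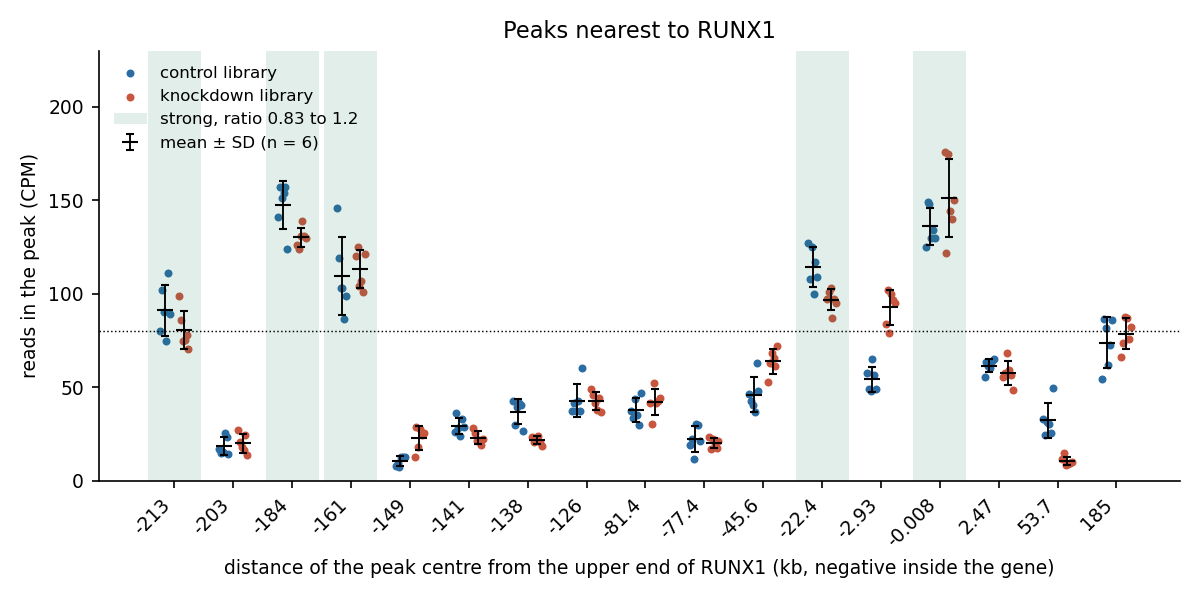
Level (CPM) of the 17 peaks nearest to RUNX1 in each control (blue) and knockdown (red) library with mean ± SD (n = 6), ordered by the distance of the peak centre from the upper end of the gene (kb, negative inside the gene). Green bands mark the 5 strong and steady peaks, and the dotted line marks 80 CPM.

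Gene lists of the myeloid lineage were counted beside all genes. Of 46 blood transcription factor genes with a peak, 12 (26.1%) had a strong and steady one, among them BACH2, CEBPA, GFI1, HHEX, IRF1, LYL1, MYC, RUNX1, RUNX3, STAT3 and ZEB2. Such genes often have several peaks, and per peak the share was 16 of 250 (6.4%), against 4.13% of all peaks. MYC, a growth regulator, had a peak over an end of the gene. This peak had 214, 219 and 238 CPM in control and 173, 190 and 210 CPM in knockdown. The groups did not overlap, and the peak was called lost (DESeq2 adjusted p = 0.0169), a value of the contrast that the rule used. How often groups did not overlap over all peaks was not counted. MYC lies on chromosome 8, where the median ratio of all peaks was below that over all chromosomes. The part of this shift in the MYC values was not tested. GFI1, a repressor in granulocyte development, had a peak 10.6 kb from the gene with 177 ± 20.5 and 163 ± 5.78 CPM. The peaks in BACH2, a repressor of the BACH family, and over an end of LYL1, a helix-loop-helix factor of blood stem cells, had 129 ± 10.3 and 130 ± 15 CPM and 121 ± 14.0 and 129 ± 7.53 CPM, with overlapping values.

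Of 34 genes for cytokine receptors and their signalling with a peak, 9 (26.5%) had a strong and steady one (11 of 118 peaks, 9.32%): CSF2RA, EPOR, IFNAR2, IFNGR1, IL17RA, KIT, PTPN6, TGFBR1 and TYK2. IFNGR1, a chain of the interferon gamma receptor, had 147 ± 8.03 and 138 ± 12.2 CPM at its start. The 2 peaks in IL17RA, the interleukin 17 receptor, had 124 ± 19.3 and 146 ± 5.79 CPM and 111 ± 12.1 and 105 ± 8.30 CPM. PTPN6, a phosphatase that dampens receptor signalling, had 121 ± 6.66 and 112 ± 10.7 CPM, EPOR, the erythropoietin receptor, means of 99.1 and 115 CPM, and TYK2, a Janus kinase, 107 ± 14.3 and 102 ± 13.5 CPM. Control and knockdown values overlapped at each of these peaks.

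Of 46 leukocyte surface and adhesion genes with a peak, 11 (23.9%) had a strong and steady one (11 of 184 peaks, 5.98%). SELPLG, the ligand of P-selectin, had 168, 196 and 251 CPM in control and 174, 198 and 239 CPM in knockdown. PTPRC, which encodes CD45, had 161 ± 18.1 and 165 ± 14.8 CPM within the gene, and PTPRE, a receptor phosphatase, 146 ± 16.4 and 134 ± 17.8 CPM. Peaks outside CXCR4, the CXCL12 receptor (17.4 kb away), and CD47, a signal against engulfment (8.23 kb away), had 132 ± 18.4 and 139 ± 14.3 CPM and 115 ± 8.05 and 132 ± 7.48 CPM. A peak 28.2 kb from FCGR1A, the high-affinity IgG receptor gene, had 116 ± 18.9 and 103 ± 11 CPM.

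AP-1 and immediate-early genes had 4 of 23 genes in the set (6 of 87 peaks, 6.90%). Of 3 such peaks outside ZFP36L2, whose product promotes decay of AU-rich mRNA, the strongest had 217 ± 10.2 and 235 ± 7.33 CPM. ATF4, a stress response factor, and FOS had 120 ± 20.8 and 112 ± 17.1 CPM and 88.9 ± 29.6 and 87.4 ± 16.2 CPM at their starts, and a peak 2.29 kb from ZFP36 had 82.0 ± 11.4 and 86.3 ± 12.8 CPM. NF-kappaB and inflammatory signalling had 1 of 28 genes (1 of 83 peaks, 1.2%), NFKB2, with 94.6 ± 13.1 and 87.2 ± 5.50 CPM. Cell survival and cell cycle genes had 3 of 32 (4 of 85 peaks, 4.71%). CCND3, cyclin D3, carried 2 of these peaks, with 198 ± 15.2 and 213 ± 12.2 CPM and 120 ± 10.0 and 128 ± 10.8 CPM. BAK1, a pro-apoptotic BCL2 family member, had 99.2 ± 14.8 and 97.0 ± 8.93 CPM, and a peak 16.7 kb from PMAIP1, another one, 116 ± 6.88 and 104 ± 14.0 CPM.

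Autophagy and lysosome genes had 5 of 36 genes in the set (5 of 97 peaks, 5.15%). VMP1, needed for autophagosome formation, had 172 ± 26.1 and 194 ± 12.4 CPM. This peak lay inside the gene, 54.7 kb from its nearer end, and held no start site, so it does not describe the VMP1 promoter. NBR1 and SQSTM1, autophagy receptors, had 132 ± 14.5 and 115 ± 10.1 CPM and 92.0 ± 8.87 and 88.3 ± 19.5 CPM. ATG7 had 107 ± 10.3 and 107 ± 10.6 CPM and LAMP2 87.9 ± 8.11 and 88.4 ± 9.44 CPM. The NBR1 peak also reached into BRCA1. Chromatin regulators had 9 of 43 genes (9 of 152 peaks, 5.92%), among them EP300, a histone acetyltransferase, with 102 ± 14.6 and 104 ± 16.7 CPM, and the histone deacetylase genes HDAC4 (98.4 ± 11.9 and 99.7 ± 6.81 CPM) and HDAC5 (89.3 ± 20.3 and 104 ± 11 CPM). ASXL2 had 101 ± 21.2 and 86.5 ± 14.2 CPM, and a peak 74.0 kb from ARID1A, a subunit of the SWI/SNF remodeller, 106 ± 18.9 and 96.7 ± 12.3 CPM.

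Housekeeping families were also present. The ribosomal, histone and zinc finger genes were taken by the form of their symbols. The cytosolic ribosomal count thus includes the paralogs RPL7L1 and RPL26L1 and leaves out RPLP1. Of mitochondrial ribosomal protein genes with a peak, 12 of 53 (22.6%) had a strong and steady one, 8 of these peaks at a gene end, and of cytosolic ribosomal protein genes 10 of 65 (15.4%), 8 at a gene end. Splicing and RNA processing genes had 8 of 50 genes and zinc finger genes 30 of 289 (10.4%). Per peak, the shares were 10.7% for mitochondrial ribosomal, 9.52% for cytosolic ribosomal and 9.30% for splicing genes, beside 9.32% for the cytokine receptor list, and 5.50% for zinc finger genes. Of 29 peaks at replication-dependent histone genes none belonged to the set, a count that allows up to 10.3%. The 4 gene signatures that the study drew from mouse blood progenitors had 4.30%, 4.47%, 3.47% and 4.80% of their peaks in the set, near the 4.13% of all peaks. Of their genes, 231 of 270, 508 of 590, 277 of 346 and 603 of 712 matched a human symbol, and the others are not in these shares. Across lists, shares per peak ran from 0% to 10.7%, and no test was made of them.

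Between knockdown and control, DESeq2 called 62 of the 1101 peaks, 10 gained and 52 lost, where 42.0% of all peaks were called (21.3% gained, 20.7% lost). The rule used this contrast, so nothing is read from these counts. The fitted log2 fold changes ran from -0.33 to 0.29 with a median SE of 0.114, against 0.213 over all peaks. For 1100 of the 1101, the 95% interval of the fold change lay within 1.5-fold in both directions, against 28.3% of all peaks. The ratio band and the smaller SE of strong peaks largely fixed this count in advance, so nothing is read from it either. The direction of the calls depended on the scaling. With size factors from the 18255 peaks with at least 10 counts in every library, which moved all log2 fold changes up by 0.070, 59 gained and 6 lost, and with total counts, which moved them by 0.019, 20 gained and 34 lost. Without knockdown replicate 2, 19 gained and 17 lost.

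The rule did not use the batch labels, but it was not free of the batches. The groups are unbalanced over them, so a batch difference can move a ratio and with it the choice. With the mean of the batch means, the rule took 1122 peaks, of which 1061 were among the 1101. The peak list also holds only peaks found in both rounds. DESeq2 called 12 of the 1101 peaks between batch 2 and batch 1 (1.09%), against 0.792% of the 15278 peaks with an adjusted p. Of these 12, 11 were lower in batch 2 (0.999%, against 0.727% of all), and 7 lay at a gene end. The difference in power between strong and weak peaks was not removed from these shares. The smallest adjusted p belonged to a peak in SPDYE3, a gene with near-identical copies, which had 116 CPM in control and 127 CPM in knockdown in batch 1 and 75.7 and 89.6 CPM in batch 2 (log2 difference -0.56 ± 0.11 SE, adjusted p = 0.00186). PPIB, an endoplasmic reticulum cyclophilin gene, had 140 and 133 CPM in batch 1 and 98.4 and 97.7 CPM in batch 2 (adjusted p = 0.0115). DDX20, an RNA helicase gene, and PCBP3, an RNA binding protein gene, had 134 and 124 against 92.7 and 86.3 CPM and 102 and 97.5 against 61.3 and 74.8 CPM, with the same adjusted p. The counts moved with single libraries, to 1 without knockdown replicate 1, 2 without control replicate 1, 5 without knockdown replicate 4, 6 without control replicate 4 or 5, 22 without knockdown replicate 3 and 23 without control replicate 2.

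The effect of knockdown differed between the batches at 0 of the 1101 peaks and at 0% of all peaks (DESeq2 interaction term, adjusted p under 0.05). At an unadjusted p under 0.05 there were 29 of the 1101 (2.63%) and 669 of all (2.51%), and edgeR also called 0.

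The 1101 peaks took 13.2% to 14.1% of the in-peak reads of a control library and 13.3% to 13.8% of a knockdown library. The share was 14.0% in control and 13.6% in knockdown in batch 1 and 13.5% in both in batch 2. The difference between the batches, -0.303 percentage points, was not significant (two-sided exact permutation test of batch labels within genotype, 300 arrangements, p = 0.0900, adjusted p = 0.180 over 4 shares tested). It was -0.430 points without knockdown replicate 2 (p = 0.0300) and -0.358 points without knockdown replicate 3 (p = 0.0350, both exact permutation tests). Peaks of the set at gene ends took 6.21% ± 0.224 of reads in batch 1 (SD, n = 5) and 5.84% ± 0.166 in batch 2 (n = 7). The exact permutation test gave p = 0.0133, which did not pass after adjustment (adjusted p = 0.0533). The other peaks of the set took 7.62% and 7.65% (exact permutation test, p = 0.840), and those on chromosome 1 at 39 to 41 Mb 0.615% and 0.640% (exact permutation test, p = 0.197).

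Peaks around the strong and steady ones changed about as often as all peaks outside the set. Within 50 kb of 926 strong and steady peaks lay 2519 peaks outside the set. Of these, 22.0% gained and 21.6% lost RUNX1, close to the 22.1% and 21.4% of all 25541 peaks outside the set. A gained peak lay near 418 of the 926, a lost one near 435, both near 180, and 253 had such neighbours but none called. Another strong and steady peak lay within 50 kb of 178. The same counts were not made around other peaks, so nothing is read from them.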

How the data were processed

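RUNX1 ChIP-seq of THP-1 cells was analysed in 12 libraries. Reads per peak were deposited as raw featureCounts counts, beside the peak's length in bases. The peak list behind them was built from macs2 calls on bowtie2 alignments without duplicates and holds only peaks that IDR found in both rounds of the experiment. The methods name a mouse build. The coordinates were taken as GRCh38, since 24.4% of peaks lay within 1 kb of a gene end in the RefSeq table of GRCh38.p14, against 5.48% to 7.58% after shifts of 10 to 1000 kb. The table gives no strand or exons. A gene end is either end of a protein-coding gene, since start sites were given for 15843 of 20037 genes, and the nearest gene was taken by start site, or by gene end where a gene had none.

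CPM were computed here as counts per 1000000 of each column's total. All 26642 peaks were tested with DESeq2 1.42.0 (R 4.3.3) with batch as covariate, and alternatively with edgeR 4.0.16, both tested on simulated data. Libraries were grouped by the labels. The members, gene lists and comparison sets were chosen with earlier results of these data known. Named peaks were the 12 strongest, up to 6 per list, the 4 widest and narrowest, the 4 with the smallest adjusted p between batches, the 3 nearest a ratio of 1 and those at the edges of the rule. Lists were matched by symbol, and 2 symbols of the 2 lists on NF-kappaB and the leukocyte surface had no match. Mouse symbols of the study signatures were matched in upper case, and those with no human gene of that symbol were left out. Start sites were given for no gene on chromosome 8. The peaks came from the very libraries that are compared.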

Additional observations from a re-analysis of the deposited data

Results flagged for a closer look

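In 156 groups of 6 libraries (74 named peaks and 4 shares of reads, per genotype), 4 held 1 library far from the others by Dixon's criterion, where chance flags about 1 in 20 groups. The peak at the start of FOS had 149 CPM in control replicate 1, and the next highest control value was 83.0 CPM. The start of EXO5 had 492 CPM in the same library, against at most 404 CPM in the other control libraries. Knockdown replicate 3 had 125 CPM at the peak near FCGR1A, with 103 CPM next, and 123 CPM at the narrow peak near NID1, with 87.0 CPM next. The cause was not tested.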

How the results depend on the processing

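The number of strong and steady peaks was 2074 at a level of 60 CPM, 611 at 100 CPM and 665 with a ratio from 0.91 to 1.1. It stayed within 1.5 times of 1101 under the other 22 alternatives, with 1050 to 1143 when 1 library was left out, and 905 of the 1138 peaks chosen in batch 1 alone and 913 of the 1020 in batch 2 alone were among the 1101. The share at gene ends was 40.3% by the distance from the peak's centre (21.9% of all peaks), 56.1% with all annotated genes (32.2%) and 24.5% for the choice per kb, and 43.6% to 46.2% without 1 library. The median width was 1829 bp at 100 CPM, 1142 bp for the choice per kb and 1735 to 1782 bp without 1 library. Leaving out chromosome 1 at 39 to 41 Mb, start sites and the local level were added after the data were seen, and leaving out that stretch gave 45.1% and 1744 bp.

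Calls between knockdown and control were 112 with edgeR, 10 with a replicate block in place of batch, 0 at a fold change over 1.5, 65 with the count filter (with the direction turned, as given above) and 24 to 68 without 1 library (36, also turned, without knockdown replicate 2; 24 without knockdown replicate 1, 32 without control replicate 6, 33 without control replicate 5 or knockdown replicate 4, 34 without knockdown replicate 5 and 40 without knockdown replicate 6). The replicate numbers share no batch at number 3, and deviations of same-numbered libraries correlated at -0.0594 to 0.173, and not every control library correlated best with its own number, so the libraries share only a number. Calls between batches were 38 with edgeR, 0 in control libraries alone, 0 in knockdown libraries alone and 1 to 23 without 1 library. No alternative called a difference between batches in the effect of knockdown. The batch difference in the share of reads ranged from -0.430 (p = 0.0300) to -0.177 (p = 0.340, both exact permutation tests) without 1 library, and was -0.358 (p = 0.0350) without knockdown replicate 3. The cause of these changes was not tested. At the lowest counts of the set, 31 reads in a library, counting error limits single values.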
